A study of Mus musculus with 16 samples.

Results

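Mouse pluripotent cultures of EpiSC type were compared with cultures of ES-like type, by setting 8 arrays against 8 arrays. The states were assigned from the sample titles alone, and all 16 of the 16 arrays entered the comparison. EpiSC stands for epiblast stem cell, the primed type of pluripotent cell taken from the postimplantation epiblast. ES stands for embryonic stem cell, the naive type taken from the blastocyst, and iPS for a cell reprogrammed to pluripotency. The EpiSC-type arrays held 4 arrays of NOD EpiSC-like ES #1 (passages 5, 7, 9 and 10), 2 of NOD EpiSC-like iPS #6 (passages 7 and 12) and 2 of EpiSC from a strain labelled non-NOD (passages 12 and 20). The ES-like arrays held 3 NOD ES arrays (titled NOD-ES 4K, NOD ES 43 KP/CH and NOD ES 85 KP), 3 arrays titled 129 ES and labelled non-NOD (1 epiESM and 2 mESM, all at passage 8), and 2 arrays titled iPS_EpiSC (3M and 1K), also labelled non-NOD and with the cell line label EpiSC iPS. NOD is an inbred mouse strain that develops autoimmune diabetes. It supplied 6 of the 8 EpiSC-type arrays and 3 of the 8 ES-like arrays, so strain was not balanced between the states. The sources used here do not give medium or age of the cultures, nor the meaning of the title suffixes. Of feeder cells they give the removal described below, but not the feeders of each array.

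The arrays of a state are not 8 separate lines. The 4 ES #1 arrays are passages of 1 line and the 2 iPS #6 arrays are passages of another. The 2 mESM arrays carry the same source name apart from a number, and they were the most alike pair of the study. Nothing in the labels says which arrays came from separate cultures, so p-values measure the spread between these samples. RNA of ES cells was taken after embryonic fibroblasts had been depleted by preplating on gelatin, whereas EpiSC and EpiSC-like colonies were separated by hand. The way of removing feeder cells therefore went with the state, and the contribution of the culture and of the isolation to a difference cannot be told apart.

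Naive cells are held in self-renewal by LIF acting through Stat3 and by a circuit of transcription factors that includes Esrrb, Tfcp2l1, Klf2, Klf4, Klf5 and Tbx3 around the core factors Pou5f1 (Oct4), Sox2 and Nanog. Primed cells depend on FGF and Activin or Nodal signals, keep Pou5f1 and Sox2, lose most of the naive circuit, and start to transcribe genes of the postimplantation epiblast such as Fgf5 and Otx2. Primed cells also carry more DNA methylation at germ-line promoters, and mouse naive cells depend on threonine breakdown for one-carbon units.

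Levels are given as log2 of the processed spot signal relative to the array's own 75th percentile, so that 0 stands for a spot at that percentile and 1 unit is a doubling of signal. Levels of different probes are not comparable with each other. Each array held 43379 gene spots, of which 55.9% to 88.5% were well above background on the EpiSC-type arrays and 26.3% to 72.6% on the ES-like arrays, and no gene spot was saturated. Lowest of all was NOD-ES 4K with 26.3%, so that its dim genes carry less information. For 4 ES-like arrays the nearest array was of another line group. NOD-ES 4K and iPS_EpiSC 3M were nearest to each other, with an SD of 0.668 of the log2 differences over genes, and iPS_EpiSC 1K was nearest to NOD ES 43 KP/CH (SD 0.369). The array epiESM was also nearest to NOD ES 43 KP/CH (SD 0.821), against 0.998 and 1.003 to the mESM arrays of its own group. NOD-ES 4K and iPS_EpiSC 1K, each nearest to an array of the other's group, are called the 2 arrays of doubtful label, and results are given without them. Each of the 16 arrays had its nearest array within its own state. The SD to the nearest array was 0.199 to 0.821 within a state and 1.149 to 1.353 between the states.

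The defining markers bear on the state names unevenly. Esrrb, Nr0b1, Zfp42 and Dppa5a, all markers of naive cells, were higher on each of the 8 ES-like arrays than on any of the 8 EpiSC-type arrays. Pou5f1, which both kinds of pluripotent cell transcribe, was 0.88 and 0.27 on the EpiSC arrays and -1.52, -0.61, -1.47 and -1.12 on the ES #1 arrays, but -4.42 and -3.40 on the iPS #6 arrays. It was not well above background on 1 of the 8 EpiSC-type arrays. Fgf5, the usual marker of the primed epiblast, was well above background on all 8 EpiSC-type arrays, yet averaged 2.93 on EpiSC, 1.03 on ES #1 and -2.23 on iPS #6, against -3.0 on NOD ES, -5.76 on 129 ES and -2.42 on iPS_EpiSC. The iPS #6 arrays are therefore called EpiSC-type here by title, with the pluripotency markers of an EpiSC only in part. In RNA from a whole culture, fewer cells of a type and less RNA per cell cannot be told apart.

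Of 23167 genes tested with limma, 5351 (23.1%) differed between the states at a Benjamini-Hochberg adjusted p under 0.05. Of these, 2326 (10%) rose in the EpiSC-type arrays and 3025 (13.1%) fell. The fit took the line group as a random block, and the arrays of a line group were correlated at 0.381. A stricter description asks whether a gene separates the states without any overlap: its lowest array of one state had to lie above its highest array of the other, with every array of the higher state well above background. By this description 1097 genes (4.74%) were higher on all 8 EpiSC-type arrays and 1444 (6.23%) were lower on all of them, together 2541 (11%). Of the separating genes, 2496 also passed the limma test and 45 did not, while 2855 genes passed the test without meeting the description.

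The gap between the states, taken from the lowest array of the higher state to the highest array of the lower one, was mostly narrow. It exceeded 1 unit for 203 genes higher in the EpiSC-type arrays and 287 lower, and it exceeded 3 units for 17 higher and 45 lower. At the other end, 369 genes had a gap under 0.1, and the narrowest gap counted as separating was 0.000485. The median difference over all genes was -0.265, and values for lists of genes below are read beside it. Counts of list members are read beside 10% of all genes rising and 13.1% falling. For members without overlap the shares over all genes are 4.74% higher and 6.23% lower. Only slides 4 and 5 of the 6 array slides held both states, each with 1 EpiSC-type array, a passage of ES #1. Within slide 4, 5330 of the 5351 called genes (99.74%) had the same direction and within slide 5, 5325 (99.51%) had, but these arrays were among those on which the genes were called, so the shares are no independent check. With the slide as a fixed block, 1571 genes rose and 1577 fell. With quantile normalization 2736 rose and 2650 fell, so which direction held more genes depended on the normalization.

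**Figure D1:**
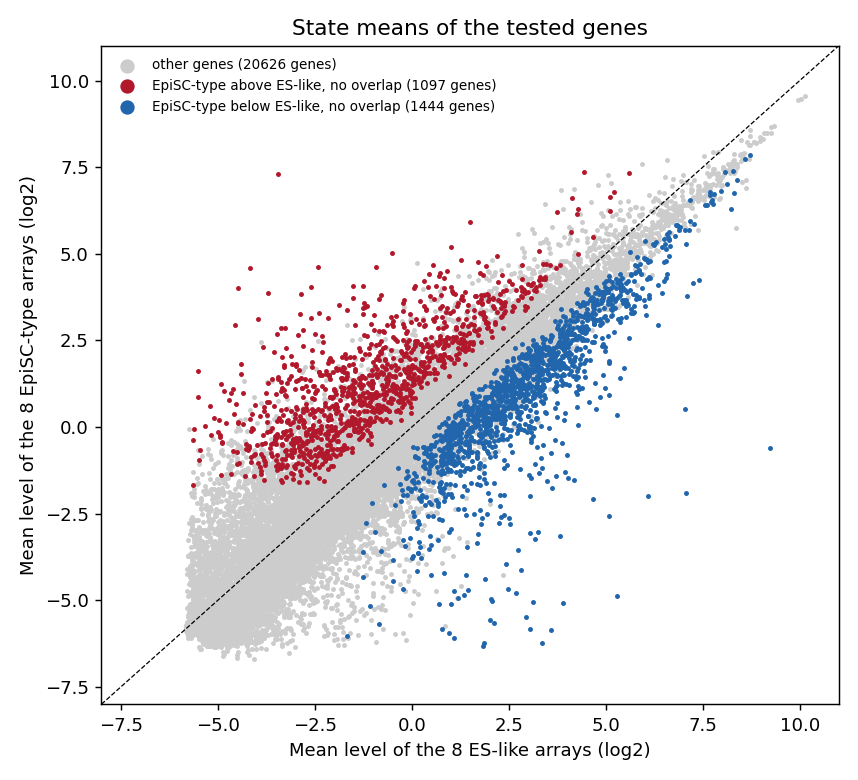
Mean level of each of 23167 genes on the 8 EpiSC-type arrays (vertical axis, log2 signal relative to the array's 75th percentile) against its mean on the 8 ES-like arrays (horizontal axis). Coloured points are the 1097 genes that were higher on every EpiSC-type array and the 1444 that were lower on every one, and the 20626 other genes are grey.

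The 12 genes with the widest gaps among those lower in the EpiSC-type arrays are described first. Dppa5a, an RNA-binding protein used as a marker of ES cells, had the widest gap of all genes in either direction. It lay between -0.96 and -0.04 (median -0.66) on the EpiSC-type arrays, against 8.84 to 9.67 (median 9.19) on the ES-like arrays. The 2 states were 8.89 units apart at their closest arrays, and the mean level was 910-fold lower in the EpiSC-type arrays (log2 difference -9.83 ± 0.24, adjusted p = 3.04e-14; ± is the SE of the fit throughout). Zfp42 (Rex1), a zinc finger protein and classical marker of the naive state, lay between -7.03 and -2.71 (median -4.89) on the EpiSC-type arrays, against 4.52 to 6.47 (median 5.19) on the ES-like arrays. It was well above background on 1 of the 8 EpiSC-type arrays, ES #1 at passage 10, and on all 8 ES-like arrays (log2 difference -10.16 ± 0.77, adjusted p = 1.5e-07).

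Tdh, the threonine dehydrogenase on which mouse ES cells depend, lay between -2.35 and -1.05 (median -2.09) on the EpiSC-type arrays, against 6.09 to 7.83 (median 7.20) on the ES-like arrays, which left a gap of 7.14 and a mean 514-fold lower (log2 difference -9.01 ± 0.44, adjusted p = 1.27e-09). Dnmt3l, the catalytically inactive partner of the de novo DNA methyltransferases, lay between -2.50 and -1.14 (median -2.01) on the EpiSC-type arrays, against 5.31 to 7.04 (median 5.98) on the ES-like arrays. Its mean was 278-fold lower (log2 difference -8.12 ± 0.39, adjusted p = 1.04e-09), with no overlap between the states. Tdh and Dnmt3l remained well above background on all 8 EpiSC-type arrays, so that for them the difference was measured on both sides.

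Dppa4, a DNA-binding chromatin protein of pluripotent cells, lay between -7.41 and -3.89 (median -6.18) on the EpiSC-type arrays, against 2.75 to 3.49 (median 3.46) on the ES-like arrays (log2 difference -9.60 ± 0.67, adjusted p = 5.86e-08). Morc1, an ATPase that silences transposons in male germ cells, lay between -6.23 and -3.70 (median -5.63) on the EpiSC-type arrays, against 1.39 to 3.81 (median 3.27) on the ES-like arrays (log2 difference -8.47 ± 0.66, adjusted p = 2.04e-07). Rbmxl2, an RNA-binding protein of the testis, lay between -7.09 and -4.07 (median -5.70) on the EpiSC-type arrays, against 2.85 to 3.95 (median 3.77) on the ES-like arrays (log2 difference -9.29 ± 0.49, adjusted p = 2.74e-09). For these 3 genes just 1 of the 8 EpiSC-type arrays was well above background, against all 8 ES-like arrays, so the low side is close to the floor of the measurement.

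Esrrb, an orphan nuclear receptor of the naive circuit, lay between -6.25 and -3.94 (median -5.11) on the EpiSC-type arrays, against 2.12 to 5.06 (median 3.86) on the ES-like arrays (log2 difference -8.96 ± 0.73, adjusted p = 3.38e-07). The gene has 2 probes, and the other gave -2.20, a smaller difference in the same direction. Tex19.1, which restrains retrotransposons in germ cells and placenta, lay between -4.31 and -1.21 (median -2.42) on the EpiSC-type arrays, against 3.94 to 5.58 (median 5.39) on the ES-like arrays (log2 difference -7.72 ± 0.52, adjusted p = 4.53e-08). A further 3 of the leading genes were well above background on no EpiSC-type array, so that only a lower bound can be given for the fold, taken against the lowest signal well above background on each array. By that bound Nr0b1 (Dax1), a nuclear receptor that binds Pou5f1, was at least 261-fold lower (adjusted p = 3.48e-07). The bound was at least 129-fold lower for Acsbg3 of the acyl-CoA synthetase family (adjusted p = 1.17e-07) and at least 129-fold lower for Pramel13 of the PRAME-like family (adjusted p = 9.02e-07).

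**Figure D2:**
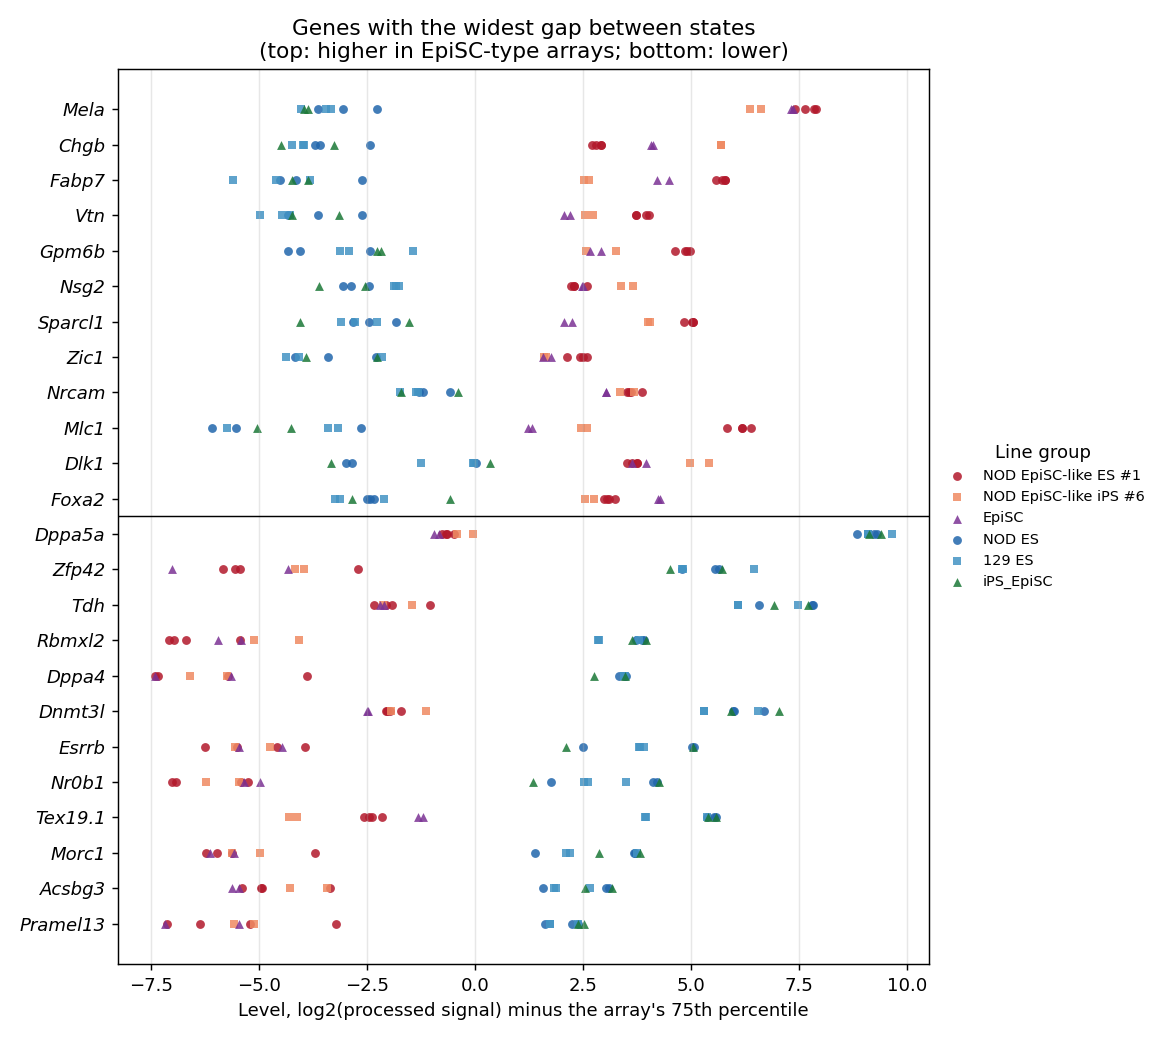
Levels of the 24 named genes with the widest gaps on each of the 16 arrays (horizontal axis, log2 signal relative to the array's 75th percentile), with the 12 genes higher in the EpiSC-type arrays above and the 12 lower ones below, and colour marking the 6 line groups. The EpiSC-type and ES-like points of a gene do not overlap in any row, and the distance between them runs up to 8.89 units for Dppa5a.

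Promoter sequences were looked up to see what the separating genes share beyond their levels. RefSeq promoters of the GRCm38.p6 build, from 250 bases before to 50 bases after the start, were matched for 782 of the genes higher in the EpiSC-type arrays, 1043 of those lower and 14135 of all tested genes. Printed here are 5, for genes whose states did not overlap and whose window held at least 1 of the motifs searched. Capitals mark the matches.
Zfp42 (chr8:43306960-43307259, minus strand), with the octamer ATGCAAAT that binds Pou5f1: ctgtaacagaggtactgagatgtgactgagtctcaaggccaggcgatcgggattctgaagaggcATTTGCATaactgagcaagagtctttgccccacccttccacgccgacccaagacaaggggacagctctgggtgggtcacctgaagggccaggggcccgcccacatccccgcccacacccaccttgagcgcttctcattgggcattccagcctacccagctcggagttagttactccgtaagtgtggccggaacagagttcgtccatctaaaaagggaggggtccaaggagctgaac
Zfp296 (chr7:19577037-19577336, plus strand), with the octamer and the E-box CACGTG: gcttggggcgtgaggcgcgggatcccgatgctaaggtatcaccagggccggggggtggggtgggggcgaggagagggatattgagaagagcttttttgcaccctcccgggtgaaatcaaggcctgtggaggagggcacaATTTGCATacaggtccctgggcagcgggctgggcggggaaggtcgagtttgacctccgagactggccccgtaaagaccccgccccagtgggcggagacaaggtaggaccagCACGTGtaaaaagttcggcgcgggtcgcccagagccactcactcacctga
Nanog (chr6:122707315-122707614, plus strand), with the Klf motif GGGCGTGG: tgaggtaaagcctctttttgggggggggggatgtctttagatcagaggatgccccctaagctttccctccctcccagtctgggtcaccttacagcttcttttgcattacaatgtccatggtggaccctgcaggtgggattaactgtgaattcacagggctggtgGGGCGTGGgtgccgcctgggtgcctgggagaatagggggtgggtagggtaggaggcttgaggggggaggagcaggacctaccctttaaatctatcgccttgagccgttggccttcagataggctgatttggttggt
Rbmxl2 (chr7:107209195-107209494, plus strand), with the E-box: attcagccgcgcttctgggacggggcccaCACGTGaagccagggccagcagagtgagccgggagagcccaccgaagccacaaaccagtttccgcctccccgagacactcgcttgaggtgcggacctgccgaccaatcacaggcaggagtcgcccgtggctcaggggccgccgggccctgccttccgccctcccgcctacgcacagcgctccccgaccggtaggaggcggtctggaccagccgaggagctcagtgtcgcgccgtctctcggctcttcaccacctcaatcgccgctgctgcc
Zic1 (chr9:91365719-91366018, minus strand), with the E-box: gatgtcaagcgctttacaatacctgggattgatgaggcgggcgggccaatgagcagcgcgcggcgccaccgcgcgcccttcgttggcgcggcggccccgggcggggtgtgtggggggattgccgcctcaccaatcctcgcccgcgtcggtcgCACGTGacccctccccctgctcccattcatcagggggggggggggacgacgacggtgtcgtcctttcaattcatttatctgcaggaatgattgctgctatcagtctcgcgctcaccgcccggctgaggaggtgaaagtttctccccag
The first 4 genes were lower in the EpiSC-type arrays and Zic1 was higher. The E-box, the letters bound by Myc and related factors, was in both kinds.

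Among the promoters of genes lower in the EpiSC-type arrays, 15.2% held the E-box CACGTG (95% Clopper-Pearson interval 13.1% to 17.6%), against 10.4% (8.31% to 12.7%) of those higher and 10.4% of all tested genes. The Klf motif GGGCGTGG was in 11.7% of the lower set, 10.4% of the higher set and 9.24% of all. For the octamer ATGCAAAT the shares were 1.53%, 1.79% and 1.78%, and for the Sox motif CTTTGTT 5.27%, 5.24% and 5.42%, all in that same order of sets. The STAT motif TTCCNGGAA was in 1.63%, 1.92% and 1.52%, the extended E-box TCACGTGA, which contains the E-box, in 2.59%, 1.92% and 1.69%, and the Esrrb motif TCAAGGTCA in 0.192%, 0% and 0.304%. Both strands were searched, and the intervals cover counting of genes only. The median promoter held 21 CpG dinucleotides in the lower set and 18 in the higher set, against 17 over all genes. Promoters with at most 3 CpG made up 2.3%, 5.24% and 14.7% of these sets. A separating gene had to be well above background on all 8 arrays of its higher state, a tested gene on at least 2 arrays. The sets thus passed another filter than all tested genes, and its part in the CpG and motif shares was not tested. The motif shares are descriptions of the windows and say nothing of binding.

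Members of the pluripotency core list fell together. Of 11 members, 10 fell and none rose, 8 of them without overlap against 6.23% of all genes, and the median difference was -4.12. Pou5f1 lay between -4.42 and 0.88 (median -1.29) on the EpiSC-type arrays, against 2.21 to 4.70 (median 4.08) on the ES-like arrays (log2 difference -5.18 ± 0.83, adjusted p = 0.000265). Nanog, a homeodomain factor of the core, lay between -2.82 and -0.48 (median -2.31) on the EpiSC-type arrays, against 0.58 to 3.90 (median 3.82) on the ES-like arrays (log2 difference -4.90 ± 0.77, adjusted p = 0.00022). Neither overlapped, although the EpiSC-type arrays spread over several units for Pou5f1, with iPS #6 at the bottom and EpiSC at the top. The limma F test found Pou5f1 to differ among the 3 EpiSC-type line groups (adjusted p = 0.00407).

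Sox2, the partner of Pou5f1, did not pass the test. It lay between -0.02 and 2.44 (median 2.17) on the EpiSC-type arrays, against 1.40 to 3.84 (median 3.70) on the ES-like arrays (log2 difference -1.63 ± 0.61, adjusted p = 0.0644). It passed without iPS_EpiSC 3M (adjusted p = 0.0137) or without NOD-ES 4K (0.0425). Lin28a, an RNA-binding protein that blocks let-7 processing, fell by 1.97 and Sall4, a zinc finger factor, fell by 2.44 (adjusted p = 0.00197 and 0.00511), both with overlapping arrays. For Lin28a the EpiSC arrays averaged 1.49, ES #1 -0.60 and iPS #6 -0.73, against 1.79 on NOD ES and 2.16 on 129 ES.

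The other core members separated the states. Gdf3, a TGF-beta family ligand made by pluripotent cells, lay between -6.61 and -2.44 (median -4.39) on the EpiSC-type arrays, against 1.26 to 2.63 (median 1.75) on the ES-like arrays (log2 difference -6.22 ± 0.68, adjusted p = 7.83e-06). Zfp296, a zinc finger protein of pluripotent cells, lay between -2.29 and -0.20 (median -1.79) on the EpiSC-type arrays, against 2.62 to 5.65 (median 3.37) on the ES-like arrays (log2 difference -5.43 ± 0.66, adjusted p = 2.19e-05). Tdgf1 (Cripto), the Nodal co-receptor, fell by 4.12, Utf1, a chromatin protein of undifferentiated cells, fell by 3.29, and Dppa2, the partner of Dppa4, fell by 2.41, with gaps of 1.35, 0.88 and 0.59. All 3 were well above background on every array of both states.

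The naive transcription factors fell in part. Of 11 measured, 8 fell, 7 of them without overlap, and none rose (median -4.09). Beside Esrrb, Nr0b1 and Zfp42, Nr5a2, a nuclear receptor that activates Pou5f1, lay between -4.79 and -2.32 (median -4.0) on the EpiSC-type arrays, against 1.64 to 3.95 (median 2.49) on the ES-like arrays (log2 difference -6.26 ± 0.62, adjusted p = 3.03e-06). Tfcp2l1, a target of Stat3 in the naive circuit, lay between -2.18 and -0.02 (median -1.49) on the EpiSC-type arrays, against 1.12 to 5.72 (median 3.93) on the ES-like arrays (log2 difference -5.11 ± 0.94, adjusted p = 0.000795). Tbx3, a T-box factor of the same circuit, lay between 0.11 and 1.72 (median 0.92) on the EpiSC-type arrays, against 3.24 to 6.49 (median 4.28) on the ES-like arrays (log2 difference -4.09 ± 0.67, adjusted p = 0.000335). All 3 separated the states, Tfcp2l1 by 1.14 and Tbx3 by 1.52.

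The Krüppel-like factors and Gbx2 gave mixed results. Klf4 differed by -1.06 (adjusted p = 0.232) and Gbx2, a homeobox gene, by -2.05 (adjusted p = 0.0597). Klf5 fell by 1.65 (adjusted p = 0.0447) with a gap of 0.11. Its call was lost on leaving out any 1 of iPS #6 passage 7, ES #1 passages 10, 5 and 9, epiESM, iPS_EpiSC 1K, NOD ES 43 KP/CH or NOD ES 85 KP, with adjusted p up to 0.128. Klf2 lay between 6.13 and 8.60 (median 7.07) on the EpiSC-type arrays, against 6.06 to 7.68 (median 6.90) on the ES-like arrays, a difference of 0.23 (adjusted p = 0.774). Its probes disagreed, from -3.24 to 0.16, and the mean over the probes was lower in the EpiSC-type arrays by 1.60 (adjusted p = 0.000652), so that no direction can be given for Klf2.

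Of the other naive markers, 7 of 11 fell and 1 rose, beside 13.1% and 10% of all genes. There were 5 lower without overlap, and the median was -3.48. Dppa3 (Stella), a maternal factor that protects DNA from demethylation in the zygote, was well above background on none of the 8 EpiSC-type arrays and on all 8 ES-like arrays. It was at least 124-fold lower (adjusted p = 2.93e-05). The heat map of line groups shows that the lower level of most naive genes was shared by ES #1, iPS #6 and EpiSC, whereas Pou5f1, Sox2 and Lin28a differed among them.

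**Figure D3:**
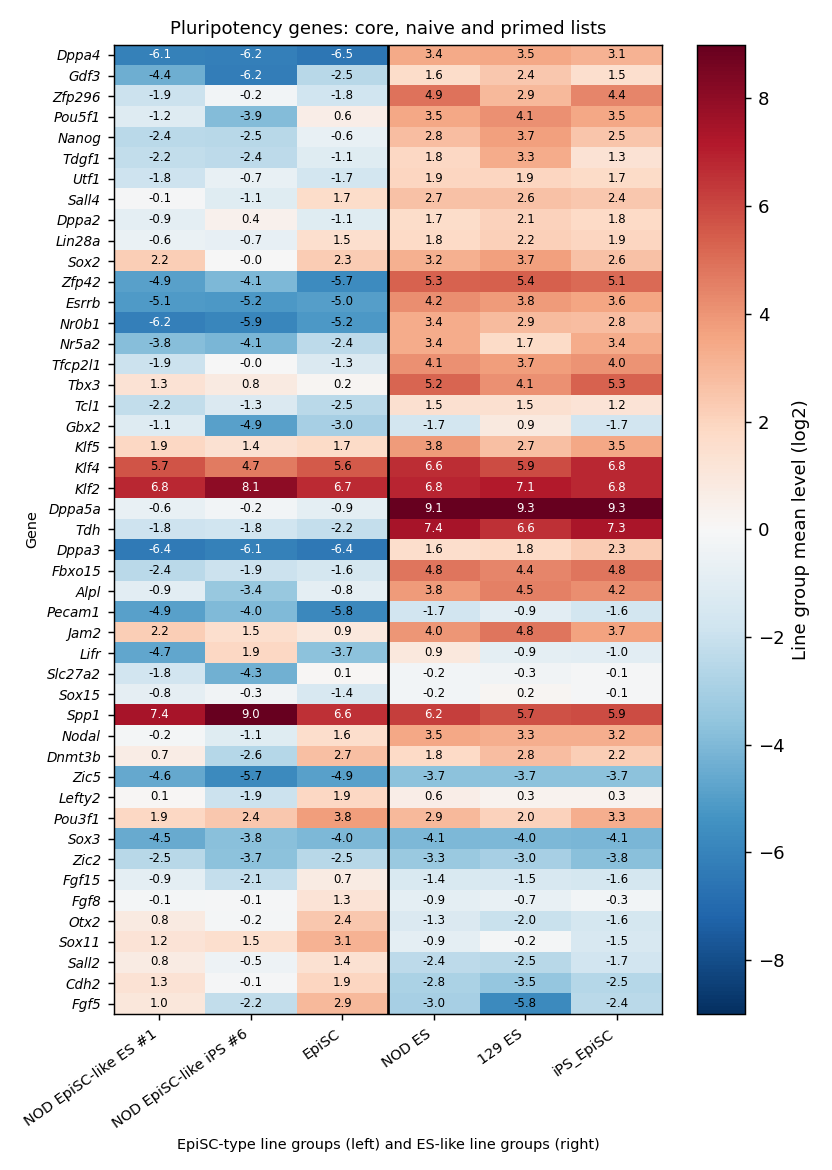
Mean level (colour, log2 signal relative to the array's 75th percentile) of the core, naive and primed genes in the 3 EpiSC-type line groups (left) and the 3 ES-like groups (right), to be compared along each row. Dppa5a, Zfp42 and Esrrb are low in all 3 EpiSC-type groups, while Fgf5 is high in EpiSC (2.93) and lower in iPS #6 (-2.23).

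Germ-line genes fell with the naive markers. Of 16 measured, 13 fell, 4 of them without overlap, and none rose, beside 13.1% and 10% of all genes. The median was -4.05 (-3.60 when genes below background in a whole state are set to their bound). Ddx4 (Vasa), the RNA helicase of germ cells, was well above background on none of the 8 EpiSC-type arrays and on all 8 ES-like arrays, at least 57.3-fold lower (adjusted p = 2.15e-06). For Dazl, a translational regulator of germ cells, the level was at least 17.7-fold lower (adjusted p = 3.22e-06). For Stk31, a Tudor-domain kinase, it was at least 10.5-fold lower (adjusted p = 4.96e-06). Dazl was measured on 7 and Stk31 on 6 of the 8 ES-like arrays. Sycp3, of the synaptonemal complex, fell by 5.56 (adjusted p = 1.28e-05), and Piwil2, which binds piRNAs, fell by 4.49 (adjusted p = 0.000229). Neither counted as separating, since 1 ES-like array of each was not well above background. Without NOD-ES 4K and iPS_EpiSC 1K, 11 germ-line genes fell.

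Among 8 DNA methylation and TET enzymes, 5 fell and 1 rose, beside 13.1% and 10% of all genes. Tet1, which oxidises 5-methylcytosine, lay between -1.78 and -0.01 (median -1.24) on the EpiSC-type arrays, against 0.71 to 2.35 (median 1.52) on the ES-like arrays (log2 difference -2.63 ± 0.40, adjusted p = 0.000152). Uhrf1, which brings Dnmt1 to replicating DNA, lay between 0.97 and 3.75 (median 2.16) on the EpiSC-type arrays, against 4.21 to 5.45 (median 4.98) on the ES-like arrays (log2 difference -2.59 ± 0.44, adjusted p = 0.000442). Dnmt1, the maintenance methyltransferase, fell by 1.27 with overlapping arrays (adjusted p = 0.00583), and Tet3, another oxidase of the Tet family, rose by 1.69 (adjusted p = 0.00562). Dnmt3b, a de novo methyltransferase, did not pass the test (log2 difference -1.96 ± 0.80, adjusted p = 0.091). It averaged 2.68 on EpiSC, 0.70 on ES #1 and -2.56 on iPS #6, against 1.81 on NOD ES, 2.76 on 129 ES and 2.24 on iPS_EpiSC. The lowest mean was that of iPS #6, and EpiSC lay within the range of the ES-like groups.

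Every measured enzyme of threonine breakdown and one-carbon metabolism fell. All 11 of 11 passed the test, 10 of them without overlap, with a median of -2.16. Without the 2 arrays of doubtful label 10 fell. After Tdh, the next step is taken by Gcat, which makes glycine and acetyl-CoA. Gcat lay between -0.04 and 2.68 (median 1.20) on the EpiSC-type arrays, against 3.38 to 4.43 (median 3.88) on the ES-like arrays (log2 difference -2.64 ± 0.45, adjusted p = 0.000464). Gldc, the decarboxylase of the glycine cleavage system, lay between -2.26 and 1.44 (median 0.33) on the EpiSC-type arrays, against 2.73 to 3.57 (median 3.13) on the ES-like arrays (log2 difference -3.26 ± 0.54, adjusted p = 0.000367). For both, the ES-like arrays lay within narrower limits than the EpiSC-type arrays, among which the line groups differed (F test, adjusted p = 0.000893 for Gcat and 6.15e-06 for Gldc).

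Folate enzymes followed the same direction. Mthfd1, which interconverts one-carbon folates in the cytosol, lay between 0.48 and 2.04 (median 1.71) on the EpiSC-type arrays, against 3.39 to 4.62 (median 4.44) on the ES-like arrays (log2 difference -2.77 ± 0.35, adjusted p = 3.29e-05). Shmt1, the cytosolic serine hydroxymethyltransferase, fell by 3.16 and Mthfd2, its partner pathway's mitochondrial dehydrogenase, fell by 2.16 (adjusted p = 0.000414 and 0.000698), with gaps of 0.55 and 0.54.

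Of the polycomb subunits and replication genes that passed the test, all but 1 fell. Of 14 polycomb genes, 9 fell and none rose, beside 13.1% and 10% of all genes, 7 without overlap (median -1.60). Cbx7, the chromodomain subunit of the canonical complex in ES cells, lay between -1.90 and -0.27 (median -1.0) on the EpiSC-type arrays, against 2.48 to 3.57 (median 3.23) on the ES-like arrays (log2 difference -4.09 ± 0.32, adjusted p = 2.58e-07). Phc1, another subunit of that complex, lay between 1.0 and 2.27 (median 1.25) on the EpiSC-type arrays, against 4.17 to 4.63 (median 4.59) on the ES-like arrays (log2 difference -2.97 ± 0.26, adjusted p = 8.64e-07), and Mtf2, an accessory subunit that binds CpG-rich DNA, lay between 0.68 and 1.97 (median 1.01) on the EpiSC-type arrays, against 3.30 to 5.01 (median 4.33) on the ES-like arrays (log2 difference -3.01 ± 0.33, adjusted p = 9.54e-06). Jarid2, also an accessory subunit of the histone H3 methyltransferase complex, fell by 2.78, and Eed, a core subunit of it, fell by 2.25.

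Of 21 cell cycle and replication genes, 11 fell and 1 rose, beside 13.1% and 10% of all genes, 8 being lower without overlap (median -1.22). Ccne1 (cyclin E1), which drives entry into S phase, lay between 1.86 and 3.43 (median 2.52) on the EpiSC-type arrays, against 5.30 to 5.94 (median 5.50) on the ES-like arrays (log2 difference -3.02 ± 0.28, adjusted p = 1.72e-06). Mcm5, a subunit of the replicative helicase, lay between 0.65 and 3.75 (median 2.33) on the EpiSC-type arrays, against 4.55 to 5.30 (median 5.02) on the ES-like arrays (log2 difference -2.70 ± 0.44, adjusted p = 0.000292). Mcm2, Mcm3 and Mcm7, of the same helicase, fell by 2.57, 2.42 and 2.38. Ccnd2 (cyclin D2), a driver of G1, was the member that rose, by 2.47 (adjusted p = 0.0286). Its call was lost without iPS_EpiSC 1K (0.1) or NOD ES 43 KP/CH (0.0563).

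Of the genes higher in the EpiSC-type arrays, Mela, named for a melanoma antigen, had the widest gap. It lay between 6.36 and 7.90 (median 7.39) on the EpiSC-type arrays, against -4.03 to -2.26 (median -3.54) on the ES-like arrays. It was well above background on all 8 EpiSC-type and 4 of the 8 ES-like arrays (log2 difference 10.71 ± 0.36, adjusted p = 4.94e-12). With 4 ES-like arrays not well above background, the size of this difference is uncertain. Fabp7, the fatty acid binding protein of radial glia, lay between 2.53 and 5.79 (median 5.04) on the EpiSC-type arrays, against -5.60 to -2.62 (median -4.19) on the ES-like arrays (log2 difference 8.53 ± 0.62, adjusted p = 1.07e-07). Chgb, a granin of secretory granules, lay between 2.71 and 5.71 (median 3.50) on the EpiSC-type arrays, against -4.49 to -2.45 (median -3.83) on the ES-like arrays (log2 difference 7.82 ± 0.53, adjusted p = 4.31e-08), although its probes ranged from 0.17 to 7.58.

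Vtn (vitronectin), an adhesive protein of matrix and plasma, lay between 2.06 and 4.02 (median 3.23) on the EpiSC-type arrays, against -4.98 to -2.63 (median -4.26) on the ES-like arrays (log2 difference 6.91 ± 0.46, adjusted p = 4.24e-08). Gpm6b, a proteolipid protein of neurons and glia, lay between 2.57 and 4.98 (median 3.95) on the EpiSC-type arrays, against -4.33 to -1.45 (median -2.68) on the ES-like arrays (log2 difference 6.44 ± 0.59, adjusted p = 1.14e-06), with probes from 0.80 to 6.70. Foxa2, the forkhead factor of endoderm and floor plate, lay between 2.56 and 4.29 (median 3.09) on the EpiSC-type arrays, against -3.24 to -0.59 (median -2.47) on the ES-like arrays (log2 difference 5.67 ± 0.48, adjusted p = 5.62e-07). None of these 6 genes overlapped between the states, and for each the ES-like side included arrays below background.

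The remaining leading genes followed the same pattern. Nsg2, a protein of neuronal endosomes, rose by 5.29 with a gap of 3.99, Sparcl1 (hevin), a matrix protein of brain, by 6.45 with a gap of 3.57, and Nrcam, an adhesion molecule of axons, by 4.61 with a gap of 3.44. Mlc1, a membrane protein of astrocytes, rose by 8.06 (3.21), and Dlk1, an imprinted ligand-like protein, by 5.45 (3.17). Mlc1 averaged 6.14 on ES #1, 2.52 on iPS #6 and 1.27 on EpiSC.

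Markers of the primed epiblast did not move as 1 group. Of 15 measured, 5 rose and 2 fell, beside 10% and 13.1% of all genes, 4 being higher and 1 lower without overlap (median 0.48). Otx2, the homeobox factor of the epiblast and forebrain, lay between -0.21 and 2.47 (median 0.77) on the EpiSC-type arrays, against -2.53 to -0.65 (median -2.0) on the ES-like arrays (log2 difference 2.63 ± 0.56, adjusted p = 0.00245). Cdh2 (N-cadherin) lay between -0.24 and 1.99 (median 1.16) on the EpiSC-type arrays, against -4.42 to -1.19 (median -3.35) on the ES-like arrays (log2 difference 4.02 ± 0.70, adjusted p = 0.000533). Sox11, an early neural factor, rose by 2.69 and Sall2, a zinc finger factor, by 2.78, with gaps of 0.68 and 0.37.

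Fgf5 lay between -2.27 and 2.94 (median 1.02) on the EpiSC-type arrays, against -6.83 to -1.76 (median -3.26) on the ES-like arrays (log2 difference 4.41 ± 1.02, adjusted p = 0.00419). It rose, but the iPS #6 arrays (-2.27 and -2.20) overlapped with the ES-like arrays. Nodal, the ligand that maintains primed cells, fell. It lay between -1.35 and 1.61 (median -0.16) on the EpiSC-type arrays, against 2.64 to 3.96 (median 3.41) on the ES-like arrays (log2 difference -3.25 ± 0.49, adjusted p = 0.000155).

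Mesendoderm genes, which mark the exit from pluripotency towards mesoderm and endoderm, rose or did not pass the test. Of 16, 9 rose and none fell, 6 without overlap against 4.74% of all genes (median 2.08). With NOD-ES 4K and iPS_EpiSC 1K omitted, 7 rose (median 1.96). Cer1, a secreted Nodal and BMP inhibitor of anterior endoderm, was well above background on all 8 EpiSC-type arrays and none of the ES-like arrays. It was at least 83-fold higher (adjusted p = 0.000359), with EpiSC at 4.20, ES #1 at 1.97 and iPS #6 at -1.62.

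Sox17, a factor of definitive and extraembryonic endoderm, lay between 0.71 and 1.56 (median 1.21) on the EpiSC-type arrays, against -3.73 to -0.09 (median -2.30) on the ES-like arrays (log2 difference 3.74 ± 0.66, adjusted p = 0.00056). Cxcr4, a chemokine receptor of definitive endoderm, lay between -1.55 and 0.59 (median 0.21) on the EpiSC-type arrays, against -5.17 to -2.29 (median -3.72) on the ES-like arrays (log2 difference 3.34 ± 0.54, adjusted p = 0.000291). Lhx1, a homeobox factor of the organizer, lay between -1.19 and 2.51 (median 0.49) on the EpiSC-type arrays, against -2.56 to -1.36 (median -1.97) on the ES-like arrays (log2 difference 2.62 ± 0.50, adjusted p = 0.00111). T (Brachyury), of the primitive streak, rose by 2.60 and Gsc (goosecoid), of the organizer, by 2.50, with adjusted p of 0.0428 and 0.0403. These last 2 calls were fragile. When single arrays were left out, the call on T was lost for 12 of the 16 (all but the 2 iPS #6 arrays, NOD-ES 4K and epiESM, with adjusted p up to 0.0952). The call on Gsc was lost for 13 (all but the 2 iPS #6 arrays and NOD-ES 4K, with adjusted p up to 0.0806).

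Primitive endoderm genes overlap with that list in Sox17, Gata4 and Gata6. Of 15, 8 rose and none fell, beside 10% and 13.1% of all genes, 3 without overlap (median 2.22). Dab2, an endocytic adaptor of that lineage, was among those that separated the states, with a difference of 2.46 (adjusted p = 0.00209). Of 12 trophectoderm genes, 4 fell and 1 rose, beside 13.1% and 10% of all genes. Tfap2c, a factor of trophoblast and germ line that naive cells also use, lay between -3.37 and -1.41 (median -2.78) on the EpiSC-type arrays, against 1.06 to 2.71 (median 1.59) on the ES-like arrays (log2 difference -4.07 ± 0.41, adjusted p = 3.35e-06).

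Of 13 neuroectoderm genes, 8 rose and none fell, beside 10% and 13.1% of all genes, 6 without overlap (median 2.19). Zic1, a factor of the dorsal neural tube, lay between 1.56 and 2.60 (median 1.94) on the EpiSC-type arrays, against -4.39 to -2.17 (median -3.66) on the ES-like arrays (log2 difference 5.26 ± 0.54, adjusted p = 4.08e-06). Map2, a microtubule protein of dendrites, lay between 0.84 and 1.27 (median 1.16) on the EpiSC-type arrays, against -3.84 to -1.63 (median -2.87) on the ES-like arrays (log2 difference 3.98 ± 0.42, adjusted p = 5.34e-06). Ncam1, an adhesion molecule, rose by 2.23 (adjusted p = 0.00257). Pax3, of the dorsal neural tube, was well above background on no ES-like array and was at least 7.67-fold higher (adjusted p = 0.00256).

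The mesenchymal and fibroblast lists held members that rose in the EpiSC-type arrays and none that fell. Of 12 genes of the mesenchymal transition, 6 rose and none fell (3 without overlap, median 1.99), beside 10% and 13.1% of all genes. That list shares members with others, among them Cdh2 with the primed list and Vim with the fibroblast list. Of 13 epithelial genes 4 fell and 1 rose (median -0.91), beside 13.1% and 10% of all genes. Vim (vimentin), the intermediate filament of mesenchyme, lay between 6.99 and 7.86 (median 7.37) on the EpiSC-type arrays, against 2.91 to 5.79 (median 4.39) on the ES-like arrays (log2 difference 2.83 ± 0.59, adjusted p = 0.00203). Epcam, the adhesion molecule of epithelia and pluripotent cells, lay between -0.18 and 1.35 (median 0.63) on the EpiSC-type arrays, against 2.69 to 3.66 (median 3.0) on the ES-like arrays (log2 difference -2.37 ± 0.30, adjusted p = 3.06e-05). Cdh1 (E-cadherin) fell by 2.36 with overlapping arrays (adjusted p = 0.0103).

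Of 22 fibroblast markers, 9 rose and none fell, beside 10% and 13.1% of all genes, 6 without overlap (median 2.33). With the 2 arrays of doubtful label omitted, 4 rose (median 2.09). Lum (lumican), a proteoglycan of connective tissue, lay between 1.32 and 4.14 (median 2.83) on the EpiSC-type arrays, against -4.61 to 0.09 (median -3.24) on the ES-like arrays (log2 difference 5.32 ± 1.0, adjusted p = 0.000924). Dcn (decorin) lay between 3.49 and 5.43 (median 4.79) on the EpiSC-type arrays, against -4.02 to 2.50 (median -0.86) on the ES-like arrays (log2 difference 5.29 ± 1.20, adjusted p = 0.00378), a call lost without the 2 arrays of doubtful label (0.0728). Mmp2, a matrix metalloproteinase, lay between 2.38 and 3.49 (median 3.33) on the EpiSC-type arrays, against -0.56 to 1.11 (median 0.09) on the ES-like arrays (log2 difference 2.94 ± 0.38, adjusted p = 3.49e-05). The 22 markers were well above background on every EpiSC-type array.

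The mean log2 level of the fibroblast markers was 2.94 to 4.18 on the EpiSC-type arrays and -0.80 to 3.34 on the ES-like arrays. Summed on the linear scale, the list came to 526 to 1160 multiples of the 75th percentile on the EpiSC-type arrays and 73.4 to 1030 on the ES-like arrays. Among the ES-like arrays iPS_EpiSC 3M (3.34), epiESM (2.75) and NOD-ES 4K (2.09) stood highest and the other 5 lay between -0.80 and 0.82. The part of fibroblast RNA in the differences of other genes was not tested.

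A list of 18 macrophage genes, chosen after their values had been seen, differed between the EpiSC-type lines. Its mean level was 2.24 and 2.42 on iPS #6, 0.14 to 0.32 on ES #1 and -3.83 and -4.11 on EpiSC, against -3.50 to -1.29 on the ES-like arrays. None of the 18 separated the states. Adgre1 (F4/80), the defining surface marker of macrophages, was 2.35 and 1.81 on iPS #6, averaged 0.22 on ES #1, and was -4.02 and -4.85 on EpiSC. By limma 4 of the 18 rose, beside 10% of all genes, and none fell, with a median of 2.61. Of these 4 calls, that on Adgre1 was lost without any 1 of 10 arrays (iPS #6 passage 7, the 4 ES #1 arrays, iPS_EpiSC 1K, NOD ES 43 KP/CH, NOD ES 85 KP and both mESM arrays, with adjusted p up to 0.0929), and those on Trem2 and F13a1 without iPS_EpiSC 1K (0.0607 and 0.0502). The remaining call, on C1qa (limma adjusted p = 0.0368), was not checked with single arrays left out. What these genes contribute to the low Pou5f1 and Fgf5 of iPS #6 was not tested.

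**Figure D4:**
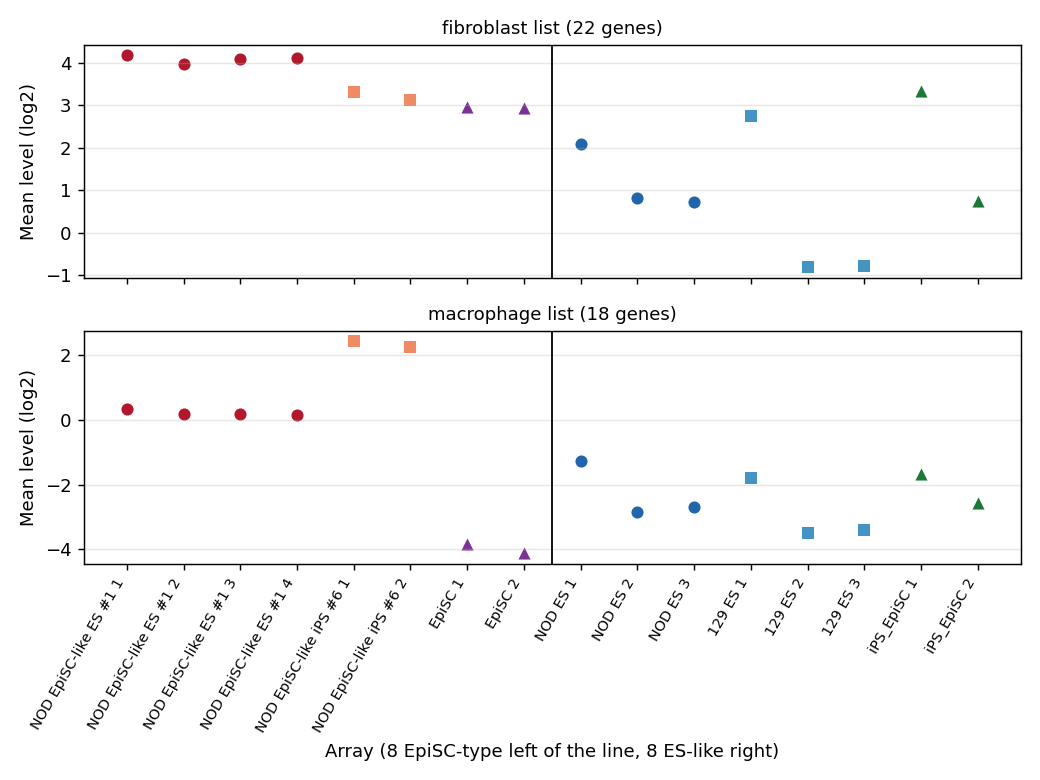
Mean log2 level (relative to the array's 75th percentile) of 22 fibroblast markers and 18 macrophage genes on each of the 16 arrays, EpiSC-type arrays before ES-like arrays. The fibroblast mean is 2.94 to 4.18 on the EpiSC-type arrays and reaches 3.34 on iPS_EpiSC 3M, and the macrophage mean is above 0 on ES #1 and iPS #6 alone.

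Antigen presentation genes rose or did not pass the test. Of 13, 7 rose and none fell, beside 10% and 13.1% of all genes, 5 without overlap (median 1.85). B2m, the light chain of MHC class I, lay between 3.43 and 5.88 (median 4.43) on the EpiSC-type arrays, against 0.15 to 2.98 (median 0.25) on the ES-like arrays (log2 difference 3.59 ± 0.65, adjusted p = 0.000699). Psmb8, an immunoproteasome subunit, lay between 0.99 and 2.59 (median 1.54) on the EpiSC-type arrays, against -4.23 to -0.11 (median -2.24) on the ES-like arrays (log2 difference 3.85 ± 0.77, adjusted p = 0.00146). H2-K1, a class I heavy chain, lay between 3.79 and 6.52 (median 4.71) on the EpiSC-type arrays, against 1.17 to 3.03 (median 2.45) on the ES-like arrays (log2 difference 2.79 ± 0.55, adjusted p = 0.00133). H2-D1 rose by 2.26 on its brightest probe but was lower by 0.43 over the mean of its probes (adjusted p = 0.728), and class I genes are near-identical copies on which probes may cross-hybridise.

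Imprinted genes shifted upward as a list, with 12 of 22 rising and 2 falling, beside 10% and 13.1% of all genes. Without overlap, 7 were higher and 1 lower, and the median was 1.70. With NOD-ES 4K and iPS_EpiSC 1K left out, 10 imprinted genes rose and 1 fell. H19, a maternally transcribed noncoding RNA, lay between 4.38 and 5.72 (median 5.02) on the EpiSC-type arrays, against -1.05 to 1.74 (median -0.88) on the ES-like arrays (log2 difference 5.50 ± 0.49, adjusted p = 1.02e-06). Igf2, the fetal growth factor beside it, lay between 5.60 and 6.35 (median 5.92) on the EpiSC-type arrays, against 0.05 to 3.73 (median 1.39) on the ES-like arrays (log2 difference 4.35 ± 0.57, adjusted p = 4.51e-05). Nnat, a neuronal paternally transcribed gene, lay between -1.03 and 3.21 (median 1.44) on the EpiSC-type arrays, against -5.02 to -2.45 (median -4.13) on the ES-like arrays (log2 difference 4.91 ± 0.75, adjusted p = 0.000182). Phlda2, which restrains placental growth, moved the other way. It lay between -1.62 and -0.15 (median -0.93) on the EpiSC-type arrays, against 2.52 to 4.81 (median 2.97) on the ES-like arrays (log2 difference -4.04 ± 0.46, adjusted p = 1.18e-05).

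Of 15 Hox genes, 2 rose, near the 10% of all genes that rose, and none fell. None separated the states (median 0.61 with genes below background in a whole state at their bound). Hoxa2 and Hoxa9 were the 2 that rose, by 2.85 and 1.98. The call on Hoxa2 was lost without any 1 of both iPS_EpiSC arrays, epiESM, NOD ES 43 KP/CH or NOD ES 85 KP (up to 0.0612), and that on Hoxa9 without NOD-ES 4K (0.0523) or iPS_EpiSC 1K (0.0647).

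The signalling lists are read beside the 10% of all genes that rose and the 13.1% that fell. Of 14 BMP genes, 8 rose and none fell (2 without overlap, median 0.97), and 4 did when NOD-ES 4K and iPS_EpiSC 1K were omitted. Id2, an inhibitor of bHLH factors and a BMP target, lay between 2.73 and 4.39 (median 3.85) on the EpiSC-type arrays, against 0.44 to 1.91 (median 1.64) on the ES-like arrays (log2 difference 2.46 ± 0.41, adjusted p = 0.000386). The ligand Bmp2 rose by 2.91 (adjusted p = 0.0028) but was well above background on just 1 ES-like array.

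In the FGF-ERK list 2 rose and 3 fell of 18. Etv4, an ETS factor induced by FGF signals, lay between -0.62 and 0.10 (median -0.27) on the EpiSC-type arrays, against 1.30 to 2.67 (median 2.15) on the ES-like arrays (log2 difference -2.29 ± 0.35, adjusted p = 0.000172), and the related Etv5 fell by 2.10 (adjusted p = 2.89e-05), with 1 ES-like array not well above background. The receptor Fgfr2 rose by 2.44 (adjusted p = 0.00819). In the Nodal list 2 rose and 3 fell of 17, and the members that fell were the ligands Nodal and Gdf3 and the co-receptor Tdgf1, while their antagonist Lefty2 did not pass the test. In the WNT list 1 rose and 2 fell of 17. Nkd1, a feedback inhibitor of that pathway, was the member that separated the states (gap 0.20).

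In the LIF-STAT3 list 2 rose and 2 fell of 10. Junb, an AP-1 factor, lay between 5.41 and 7.54 (median 6.75) on the EpiSC-type arrays, against 2.46 to 4.91 (median 4.60) on the ES-like arrays (log2 difference 2.31 ± 0.52, adjusted p = 0.00356). Bcl3, an IkB family protein, moved the other way and fell by 1.55 (adjusted p = 0.000581), with a gap of 0.36.

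The lists that follow are read beside 10% of all genes rising, 13.1% falling and 6.23% lower without overlap. Of 13 cytochrome c oxidase subunits 4 fell and none rose (5 lower without overlap, 1 of them not past the test, median -0.69). Of 21 glycolysis and lactate transport genes 2 rose and 3 fell. Eno2, the neuronal enolase, rose by 3.30 (adjusted p = 0.00746), while Hk2, a hexokinase, fell by 1.22 and Pfkp, a phosphofructokinase, fell by 1.96. Of 14 p53 genes 1 rose and 4 fell. Of 4 genes of the 2-cell stage 1 fell, and of 4 Y-linked genes none passed the test.

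Xist, the noncoding RNA of X inactivation, rose by 2.83 (adjusted p = 0.017) with overlapping arrays, a call lost without iPS_EpiSC 1K (0.0554). It averaged -0.91 on ES #1, 1.27 on iPS #6 and -3.0 on EpiSC. Its antisense Tsix fell by 4.19 (adjusted p = 8.08e-05). Of 9 housekeeping genes 1 rose and 3 fell, beside 10% and 13.1% of all genes. Hprt, a purine salvage enzyme, lay between 2.72 and 3.33 (median 3.10) on the EpiSC-type arrays, against 4.14 to 5.05 (median 4.70) on the ES-like arrays (log2 difference -1.55 ± 0.24, adjusted p = 0.000176), so a gene often used as a control separated the states.

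**Figure D5:**
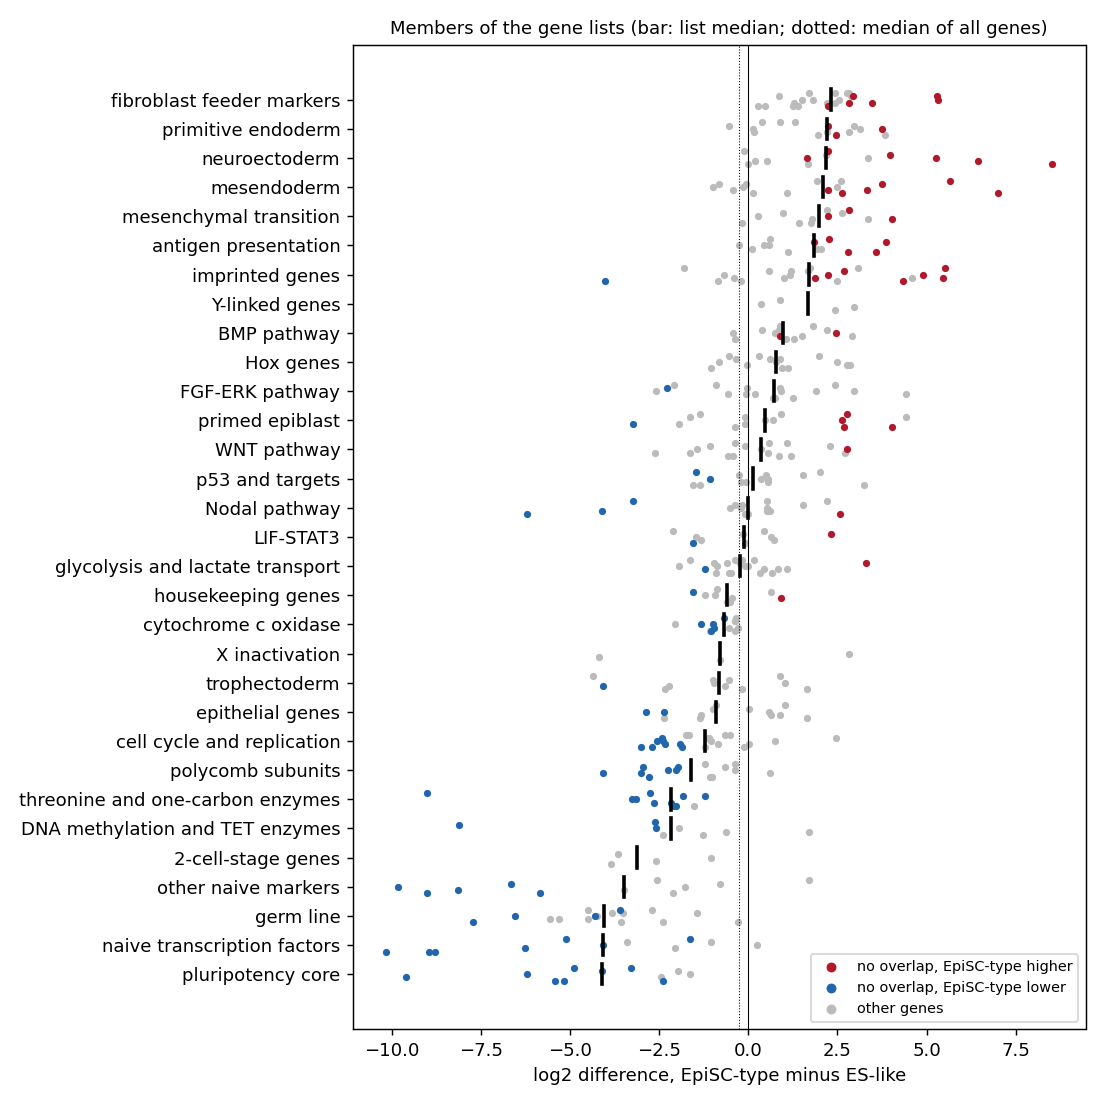
Log2 difference between EpiSC-type and ES-like arrays for each measured member of 31 gene lists (points), with the list median as a bar and the median of all genes (-0.265) as a dotted line. The naive, core and germ-line lists have medians near -4, and the fibroblast, primitive endoderm and neuroectoderm lists near 2.

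The EpiSC-type lines differed among themselves more than the ES-like groups did in the number of genes called. The F test called 6129 genes (26.5%) among ES #1, iPS #6 and EpiSC, and 579 (2.5%) among NOD ES, 129 ES and iPS_EpiSC. Both tests used the spread of arrays within line groups, among them passages of 1 line. The line groups of the 2 states differ in how many arrays and passages they hold, and the counts were not tested against each other. Of the genes higher without overlap in the EpiSC-type arrays, 299 also differed among the EpiSC-type lines and 30 among the ES-like groups. Of those lower without overlap, 569 and 44 did. Without the 2 arrays of doubtful label the counts over all genes were 11366 and 5608.

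For 1150 genes (4.96%) the size of the state difference was not the same in lines labelled NOD as in those labelled non-NOD. Of these 1150, 258 were separating genes, which made up 11% of all tested genes. Strain and line cannot be told apart here, since the non-NOD EpiSC-type arrays are a single line group. The interaction was also judged against the spread of arrays within line groups, not between lines. The count depended on the processing and on single arrays. It was 0 after normexp background correction (4386 at an unadjusted p under 0.05), and omitting NOD-ES 4K and iPS_EpiSC 1K together gave 6113. It was 205 without EpiSC passage 12 and 256 without EpiSC passage 20. It was 553 to 672 without any 1 of iPS #6 passage 12, ES #1 passage 5 or 9, NOD ES 43 KP/CH, NOD ES 85 KP or either mESM array, and 2003 to 2684 without any 1 of epiESM, NOD-ES 4K or iPS_EpiSC 1K. Fgf5 differed by 2.40 in the NOD lines and by 7.02 in the non-NOD lines, an interaction of -4.62 ± 0.85 (adjusted p = 0.0102, -4.04 without the 2 doubtful arrays). Otx2 differed by 1.58 and 4.24 (interaction -2.66 ± 0.65, adjusted p = 0.0377), and Lhx1 by 1.87 and 4.26 (-2.39 ± 0.39, adjusted p = 0.00535). For these epiblast and organizer genes the NOD lines showed the smaller difference.

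Nodal differed by -4.10 in the NOD lines and -1.69 in the non-NOD lines (interaction -2.42 ± 0.50, adjusted p = 0.0182). Gldc differed by -3.93 and -1.83 (-2.10 ± 0.26, adjusted p = 0.0016), and Uhrf1 by -3.47 and -1.12 (-2.35 ± 0.33, adjusted p = 0.00283). For these 3 the fall was larger in the NOD lines. Xist differed by 4.28 and 0.48 (3.79 ± 0.89, adjusted p = 0.031), the larger difference being that in the NOD lines.

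Each array was also placed against genes chosen without it. When an array was left out and the separating genes were chosen on the other 15, the omitted EpiSC-type array lay on its own side for 86.6% (iPS #6 passage 12) to 99.3% (ES #1 passage 5) of them. For an omitted ES-like array the share was 76.2% (iPS_EpiSC 3M) to 99.5% (NOD ES 43 KP/CH). NOD-ES 4K lay on the ES-like side for 77.3% of 3364 genes and iPS_EpiSC 1K for 99.1% of 2559, and with both left out the shares were 76.3% and 97.3%. The low share of NOD-ES 4K stands beside its low share of spots above background, and the part of the one in the other was not tested.

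Leaving out a whole line group gave lower shares for some groups. The EpiSC arrays lay on the EpiSC-type side for 56.9% and 55.8% of the genes chosen without them, the iPS #6 arrays for 67.3% and 62.3%, and the ES #1 arrays for 88.5% to 89%. The 129 ES arrays lay on the ES-like side for 69.1% to 78.5%. Shares changed less for NOD ES, with 97.9% for NOD ES 43 KP/CH, 97.1% for NOD ES 85 KP and 76.7% for NOD-ES 4K, and for iPS_EpiSC, with 76% for 3M and 98.8% for 1K. For genes chosen with a gap over 1 unit, the EpiSC arrays lay on their side for 68.4% and 66.5%. The side was judged from the middle of the gap, so an array on the wrong side need not overlap with the other state. By this measure the EpiSC arrays had the lowest shares. Without iPS #6, 1794 genes separated as higher and 1909 as lower, and without EpiSC 1642 and 2043, against 1097 and 1444 on all arrays. Many separating genes chosen on some of the lines thus overlapped once another line was added. Of the 228 genes named by rule, 175 were called and 146 of these stayed called whichever single array was left out.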

How the data were processed

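RNA of 16 samples was labelled with Cy3 from 0.5 µg of total RNA per the labels' protocols, and hybridised to 1-colour Agilent mouse arrays of design 014868 (grid build mm7 per the file headers). The deposited scanner files give, per the file headers, intensity values that Feature Extraction 10.1.1.1 background-subtracted. The table of log2 values that was also deposited matches the mean signal after quantile normalization without background correction (median 6.93 on every array), and it served as an alternative. The submitters' processing notes name limma without a version.

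Control spots were left out (1639 of 45018 features) and outlier spots set to missing (175 values remained missing). Levels are log2 processed signals from which the 75th percentile of the array was subtracted. Of 41174 gene probes, 34296 were well above background on at least 2 arrays. Among those with at most 2 values missing, the brightest probe stood for each of 23167 genes. Names came from RefSeq (GRCm38.p6) by accession for 22951 probes, symbol for 6659 and older symbol for 3109, and from the file for 8455. The number of arrays limits the precision.

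limma 3.58.1 in R 4.3.3 (statmod 1.5.0) fitted state with the line group as a random block, and calls needed a Benjamini-Hochberg adjusted p under 0.05. A second fit with 1 mean per line group gave the F tests and the state by strain interaction. For the description by non-overlap, each value on the low side was raised to the array's lowest signal well above background where it lay under it. Genes were named by rule: the 12 with the widest gaps in each direction, all members of the core, naive, primed and housekeeping lists, up to 6 of every other list, and the 6 with the largest interaction in each direction or the largest spread among the line groups of a state. Genes with only clone names were passed over, and some of the named genes are not reported here. The arrays, gene lists and named genes were chosen with earlier results of these data known. The scripts were tested on simulated data. Alternatives covered background correction, normalization, centring, probe filters, blocks, slides and arrays left out. Figures were drawn with matplotlib 3.10.9.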

Additional observations from a re-analysis of the deposited data

Results flagged for a closer look

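Some genes named in the report had a single array far from the rest of its group, by a ratio of gap to range that chance gives in about 1 in 20 groups. The checks covered 226 genes in each of 3 groups of arrays, so chance alone would give about 11.3 genes in each group. The 4, 16 and 11 genes found are of that order or fewer, and the values below are given as descriptions of single arrays. Among the 8 EpiSC-type arrays 4 genes stood out. On iPS #6 passage 12, Utf1 was 0.0286 (nearest other array -1.30) and Tcl1, a cofactor of the kinase Akt, was -0.81 (nearest -1.80). On ES #1 passage 7 Sox3 was -5.67 (nearest -4.23), and on ES #1 passage 10 Cox8c was -3.62 (nearest -5.66).

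Among the 8 ES-like arrays 16 genes stood out, 6 on NOD-ES 4K, 5 on iPS_EpiSC 3M, 4 on epiESM and 1 on NOD ES 85 KP. On NOD-ES 4K, Sox17 was -0.0948 (nearest -2.20), Smad3 -0.0076 (nearest -1.36) and Sox3 -2.59 (nearest -3.96), each above the other ES-like arrays. Tcf7 at -1.43 (nearest 0.14), Shmt1 at 0.59 (nearest 1.35) and Tbp at -2.58 (nearest -1.53) were below them. On iPS_EpiSC 3M, H19 was 1.74 (nearest -0.41), Foxa2 -0.59 (nearest -2.10) and Tap2 -0.21 (nearest -2.62), above the others, while Dppa4 at 2.75 (nearest 3.34) and Bcl3 at 1.78 (nearest 2.26) were below. All of these lay towards the mean of the EpiSC-type arrays except Sox3, whose means differed by -0.0825. On epiESM, Tfap2c was 2.71 (nearest 1.80), Cox7c 5.30 (nearest 4.64) and Pcgf6 3.23 (nearest 2.41), above the others, and Pou3f1 was 0.90 (nearest 2.61). On NOD ES 85 KP the apoptosis gene Bax was 1.20 (nearest 2.32).

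Within the 4 ES #1 arrays 11 genes stood out. On passage 10, which had the highest share of spots above background (88.5%), Zfp42 was -2.71 (nearest -5.44), Pecam1 -2.74 (nearest -5.47), Piwil2 -2.84 (nearest -5.49) and Sparcl1 4.84 (nearest 5.02). On passage 7, Klf5 was 2.10 (nearest 1.80), Cdh2 1.74 (nearest 1.16), Lhx1 0.79 (nearest 0.50), Mthfd2 0.76 (nearest 0.41), Pf4 0.47 (nearest -0.05), Aqp1 2.07 (nearest 1.63) and Sox3 -5.67 (nearest -4.17).

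The state difference was of another size in NOD than in non-NOD lines for 44 named genes (limma interaction, adjusted p under 0.05). Over all tested genes 1150 (4.96%) passed the same test. Some genes had been named because their interaction, or their spread among line groups, was among the largest. The count of 44 is therefore partly set by that choice and cannot be compared with the share over all genes. The values that follow are the difference in NOD lines minus that in non-NOD lines. Genes of the epiblast, streak and organizer were among the negative ones, with Gsc at -4.89, Fgf5 at -4.62, Shh at -4.39, T at -4.19, Lefty2 at -3.07, Dkk1 at -3.03, Otx2 at -2.66, Nodal at -2.42 and Lhx1 at -2.39. Other negative ones were Apol8 at -5.34, Egr3 at -5.31, Gbp2b at -5.14, Nkx2-9 at -4.96 and Slc27a2 at -3.09. Chromatin and methylation genes gave -2.92 for Dnmt3b, -2.35 for Uhrf1, -2.02 for Jarid2 and -1.16 for Phc1, and the germ-line gene Tex19.1 gave -2.57. Replication and one-carbon genes gave -2.33 for Shmt1, -2.24 for Gcat, -2.12 for Mcm5, -2.10 for Gldc, -2.02 for Mcm7, -1.96 for Mcm2 and -1.83 for Mcm3. Lin28a was at -1.90, Socs2 at -1.80 and Pmaip1 at -1.46.

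Genes with the largest values in each direction had been named for that size, so their passing the test is no separate result. Positive values were headed by genes of macrophages and of mucosa, with Lyz2 at 8.72, Gkn2 at 8.38, Pf4 at 8.18, S100g at 7.80, C1qc at 7.62, Ctss at 7.56, Adgre1 at 5.26 and F13a1 at 5.10. They were followed by Xist at 3.79, Pdgfra at 3.76, Eno2 at 3.25, Fas at 3.09, Dab2 at 2.45, H2-K1 at 2.42 and H2-D1 at 2.01. All 44 kept their direction and passed again without NOD-ES 4K and iPS_EpiSC 1K. None of all tested genes passed after normexp background correction, where 4386 had an unadjusted p under 0.05.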

How the results depend on the processing

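No paired analysis was possible because the replicate numbers of the states come from accession order and link no arrays. Against 2326 genes higher and 3025 lower in the EpiSC-type arrays, normexp background correction gave 1504 higher, no line block 3659 and 5027, 1 mean per line group (3 against 3) 1461 and 1661, fixed line group means 4342 and 5797, the slide as a random block 3608 and 4693, and the slide as a fixed block 1577 lower. Single arrays or line groups left out gave 1273 to 3030 higher and 1677 to 4648 lower. Quantile normalization gave 2736 higher and 2650 lower, and the deposited log2 values gave 3016 and 2750. In both of these more genes were higher than lower, unlike in the main fit and the other alternatives. Which direction held more genes therefore depended on the normalization. All called genes kept their direction in every alternative except normexp (96.75%), a filter of 8 arrays well above background (99.98%), the mean over probes (99.79%) and slides 4 (99.74%) and 5 (99.51%).

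The separating genes (1097 and 1444) numbered 725 higher with normexp, 2384 and 3854 with line group means, 203 and 287 with a gap of at least 1 (an alternative chosen after seeing the data), and 1102 to 1794 higher and 1445 to 2072 lower with arrays left out, which can only add genes. Quantile normalization gave 1426 higher and 1219 lower, and the deposited log2 values gave 1376 and 1167, so here too the larger side changed. Blocks and slides give no count of separating genes. The interaction called 1150 genes, against 0 with normexp (4386 unadjusted), 2047 in the value table, 6113 without the 2 arrays of doubtful label and 205 to 2684 with arrays left out. Among EpiSC-type lines the F test called 6129, against 738 with normexp, 11366 without those 2 arrays and 2710 to 8931 with arrays left out. Among ES-like groups it called 579, against 0 with normexp (845 unadjusted), 982 in the value table, 285 with the slide as a random block, 5608 without those 2 arrays, and 0 (without the first mESM array, 2457 unadjusted) to 1986 with arrays left out.

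Direction turned in 6 named genes: Klf2 (-1.60) and H2-D1 (-0.43) over the mean of probes, Hand1 (0.51) and Cdx1 (0.20) with normexp, and Slc16a1 (-0.0546) and Sesn2 (0.0307) within slide 5. The median of all genes was -0.265, and 0.27 with normexp, -0.09 with quantile normalization and -0.06 in the value table, so small differences depend on the scaling. Of 175 called named genes, 29 lost the call without some single array, 32 without the 2 doubtful arrays and 70 without some line group. Signal over background limits the low side of the widest gaps. The causes of these shifts were not tested.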

Other observations

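Some gene families that the lists of the report do not cover had a share of fallen members in the EpiSC-type arrays above the 13.1% of all genes. The families were picked by shared symbol after their values had been seen, so their counts are descriptions. All 10 measured subunits and cofactors of the RNA exosome (Exosc genes) fell and 8 of them separated the states, against 6.23% of all genes. Of 8 Nop genes of the nucleolus 7 fell and 6 separated, of 8 Rrp genes 6 fell and 5 separated, and of 11 Utp genes 8 fell and 5 separated. Some of these genes separated only narrowly. The gaps ran from 0.0196 (Nop16) to 1.32 (Nop2), from 0.000485 (Rrp8) to 1.58 (Rrp1b) and from 0.0935 (Utp23) to 1.32 (Utp20). Of 10 Nol genes, also of the nucleolus, 6 fell and 1 rose, and of 17 Trmt genes of tRNA methylation 8 fell and 1 rose. Of 49 Mrpl proteins of the large mitochondrial ribosome subunit 29 fell, 23 of them without overlap, and 20 did not pass. The median was -0.86 beside -0.265 for all genes, and the gaps ran from 0.014 (Mrpl19) to 0.847 (Mrpl40). Of 29 Mrps proteins of the small subunit 15 fell and 1 rose, 8 being lower without overlap (median -0.71). Of 35 Ddx helicases 22 fell, and of 8 Cct chaperonin subunits 7 did.

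Some separating genes are neighbours. Counting tested genes in RefSeq order, 30 runs of at least 3 adjacent genes separated the states in the same direction, 11 higher and 19 lower in the EpiSC-type arrays. The runs lower in the EpiSC-type arrays included Dppa4, Dppa2 and Morc1 on chromosome 16, Gdf3, Dppa3 and Nanog on chromosome 6, Aire, Dnmt3l and Icosl on chromosome 10, and Rhox6, Rhox9 and Rhox13 on the X. Aire, which drives tissue antigens in the thymus and lies beside Dnmt3l, lay between -3.93 and -2.22 (median -2.85) on the EpiSC-type arrays, against 2.22 to 3.72 (median 3.04) on the ES-like arrays (log2 difference -6.01 ± 0.37, adjusted p = 1.56e-08). The runs higher in the EpiSC-type arrays included Btg1, Dcn and Lum on chromosome 10 and Armcx6, Armcx3 and Armcx2 on the X. How many runs an order without structure would give was not computed.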
